A study of Mus musculus with 16 samples.

Results

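The cytosolic ribosomal protein genes were taken by symbol: Rpl or Rps followed by a number and at most a short ending, plus the stalk genes Rplp0, Rplp1 and Rplp2 and the small subunit gene Rpsa. Rps6k kinases and copies with -ps in their symbol were left out. This rule found 86 genes among 28683 symbols, 51 of the large subunit and its stalk and 35 of the small subunit. Of these, Rps3a2, Rps3a3 and Rps4y2 are annotated as pseudogenes in RefSeq, and Rps4y2 is the symbol that the files use for Rps4l. Fau, which encodes a ribosomal protein fused to a ubiquitin-like one, and Rack1 (Gnb2l1 in the files), which encodes a ribosome-bound protein, have symbols outside the rule.

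Single cells of the mouse hypothalamus-POA, the hypothalamus with the preoptic area, were profiled by Drop-seq, which captures cells in droplets with barcoded beads and counts transcripts by unique molecular identifiers (UMIs) near their 3′ ends. Each of the 16 libraries, S1 to S16, came from 1 female mouse. The 4 groups were WT oil (S1, S5 and S10), WT tamoxifen (S3, S8, S9, S13 and S16), Esr1cKO oil (S4, S7, S12 and S14) and Esr1cKO tamoxifen (S2, S6, S11 and S15). All mice carried a mixed CD-1;129P2 background and were 8 to 10 weeks old when injections began. Esr1cKO mice combined floxed Esr1 alleles with Tg(Nkx2-1-Cre)2Sand, so that estrogen receptor alpha was removed where Nkx2-1 had been active, and WT mice were littermates without Cre. Tamoxifen at 0.1 mg/kg, or the corn oil vehicle, was injected under the skin daily for 28 days, and tissue was taken 2 h after the last dose. Cells were prepared over 4 days with 4 mice a day, and the labels do not give the day of a library. Levels are in CPM, UMIs scaled to the total UMIs of the same cells in a library, either a cell type or all kept cells. Esr1 in neurons ran from 44.1 to 86.5 CPM in WT oil and 57.2 to 74.4 in WT tamoxifen. In Esr1cKO mice it ran from 41.5 to 59.0 CPM under oil and 17.1 to 73.9 under tamoxifen. The counted tags come from 3′ ends and need not cover the deleted part, so they check nothing about the deletion.

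Ribosomes translate mRNA with a small subunit, which reads the message, and a large subunit, which joins amino acids. Each carries ribosomal RNA and a set of proteins that cells make in near-equal amounts. In vertebrates the mRNAs of these proteins begin with a run of pyrimidines, the TOP motif, through which mTOR signaling adjusts their translation. Several members have paralogues, such as Rpl22l1 for Rpl22 and Rps27l for Rps27, that can take their place in the ribosome.

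RefSeq promoter windows of build GRCm38.p6, from 250 bases before to 50 after a start, were matched to 63 of the 86 genes, giving 75 windows. The stretches below run from 50 bases before the start to the 10 bases from it on, on the gene's strand, for the small subunit gene Rps6, the large subunit gene Rpl13a and for genes of the paralogue pairs described later. Capitals mark a run of C or T with at least 6 of its letters between 5 bases before and 10 after the start, as far as it lies within the stretch.
Rps6, chr4:86857358-86857417, minus strand: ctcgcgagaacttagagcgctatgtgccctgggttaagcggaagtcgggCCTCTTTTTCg
Rps27, chr3:90213639-90213698, minus strand: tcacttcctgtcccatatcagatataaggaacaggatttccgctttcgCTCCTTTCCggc
Rps27l, chr9:66946036-66946095, plus strand: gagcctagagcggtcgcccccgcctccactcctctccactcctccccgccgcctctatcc
Rpl22, chr4:152325676-152325735, plus strand: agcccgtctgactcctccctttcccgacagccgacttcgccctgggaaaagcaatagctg
Rpl22l1, chr3:28805458-28805517, plus strand: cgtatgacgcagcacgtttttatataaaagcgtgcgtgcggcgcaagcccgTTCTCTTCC
Rpl13a, chr7:45128736-45128795, minus strand: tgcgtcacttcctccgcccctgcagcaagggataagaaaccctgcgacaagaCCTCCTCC
Such a run stood in 36.0% of the 75 windows, against 12.8% of all 32851 windows of the table. Searched on both strands, the letters TCTCGCGA were found in 16% of member windows and 0.995% of all windows, CCGGAAG in 36.0% and 8.86%, and AAGATGGC in 10.7% and 2.75%. TATAAA was found in 9.33% of member windows and 13.6% of all. These shares describe letters only, and the windows shown for Rps27l and Rpl22 hold no run by this definition.

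In all, 55675 cells passed the filters, 1746 to 5568 per library, with a median of 563 to 819 UMIs per cell. Cells were clustered without the ribosomal protein genes into 9 types, each named from its markers, and 201 cells stayed unnamed. Libraries S13 to S16 shared barcodes pairwise: 303 to 359 cell barcodes were listed in both libraries of a pair, their depths correlated at rho 0.978 to 0.992, and 99.4% to 99.7% were given the same type. These shared barcodes made up 6.89% to 10.9% of the cells of those 4 libraries, so some values below are also given without them or without S13 to S16. S5 shared 42, 22, 16 and 10 barcodes with S13, S14, S15 and S16, other pairs at most 10, and S5 stays in the values without S13 to S16. S10 and S11 had a higher mitochondrial share of UMIs (6.92% and 8.54%) than the 3.32% to 6.0% of the others except S14 (9.21%), and their deposited barcodes started at 100 genes rather than 20. Some values below are also given without S10 and S11. Shares within paralogue pairs, shares of neuronal clusters and the variation of single members are given with all libraries only.

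In the sum of all cells, the 86 genes took 3.23% ± 0.397 (SD, n = 16) of UMIs, from 2.43% in S14 to 3.94% in S16. Levels here are CPM without regard to transcript length, since each captured transcript gives 1 UMI. Among the genes, 22 lay above 500 CPM, 54 between 100 and 500, 7 between 10 and 100, and only Rpl3l, Rpl39l and Rpl10l lay below 10. Rplp1, an acidic protein of the ribosomal stalk that recruits translation factors, was the highest at 930 ± 180 CPM, and 27 genes made up 50 percent of all member UMIs. Order was shared between types: Spearman's rho of the 83 more abundant genes ran from 0.808 (neurons with microglia) to 0.955 (microglia with fibroblasts), across genes that share libraries.

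Many of these genes have near-identical processed copies in the genome, which matters for counts of their 3′ ends. In the last 300 bases of their transcripts, a median of 50% of 50-base words occurred in other GENCODE vM21 genes, over 50% in 40 of 83 genes and none in 11. Rpl36a (100%), Rpl35 (96.0%), Rpl10 (90.4%), Rps12 (86.3%), Rpl13 and Rps6 (83.3% each) shared most, while Rpl12, Rpl14 and Rps20 were among those that shared none. Within the paralogue pairs, Rpl22 shared 11.9% and Rpl22l1 61.2%, and Rps27 58.5% and Rps27l 13.3%. Rpl10-ps3 (19119 UMIs) held more UMIs than Rpl10 itself (16343 UMIs), and Rpl13-ps3 (26689 UMIs) fewer than Rpl13 (45864 UMIs). The assignment of reads shared with such copies is not given in the sources used here. The share of words found elsewhere had a Spearman's rho of -0.0659 with mean level across 83 genes. The 11 genes that shared none include Rpl3l, Rpl39l and Rpl10l, which lay below 10 CPM. Median level was 334 CPM in those 11. It was 426 CPM in genes sharing up to 50%, 392 CPM from there to 75% and 314 CPM above 75%, where levels ran from 36.4 to 786 CPM.

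The first question was how much of each cell type's RNA came from these genes. Microglia, the brain's resident macrophages, had the highest share, 5.62% ± 0.967 of UMIs, and astrocytes the lowest, 1.64% ± 0.463 (SD, n = 16 each). Endothelial cells followed at 4.66% ± 0.593, fibroblasts at 4.20% ± 0.567, mural cells at 3.64% ± 0.540 and neurons at 3.32% ± 0.457. Ependymal cells reached 2.97% ± 0.408, polydendrocytes 2.35% ± 0.317 and oligodendrocytes 2.31% ± 0.297.

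**Figure D1:**
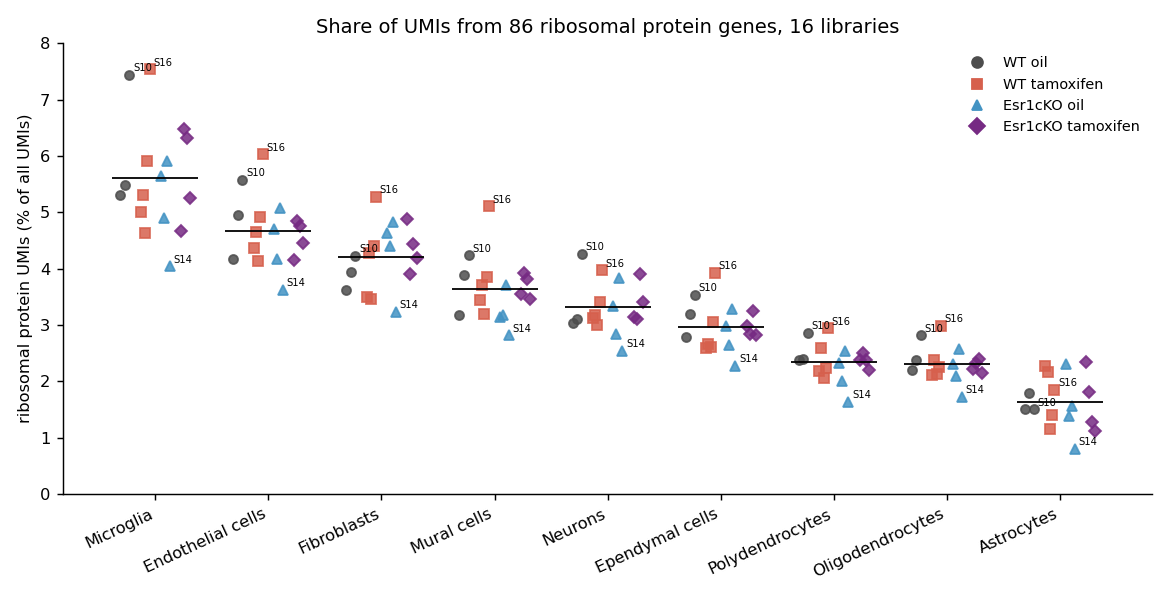
Share of UMIs from the 86 genes (y axis, percent) by cell type (x axis, ordered by mean), with 1 point per library colored by group and a line at the mean of 16 libraries; S10, S14 and S16 are labelled. Microglia sit highest, at 4.04% to 7.54%, and astrocytes lowest, at 0.805% to 2.34%, and within every type S14 is the lowest point.

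Ordered by mean, most neighbors differed within the same library. Microglia exceeded endothelial cells in 16 of 16 libraries, and ependymal cells exceeded polydendrocytes in 16 of 16. Endothelial cells exceeded fibroblasts in 14 of 16, fibroblasts exceeded mural cells in 14, mural cells exceeded neurons in 12, neurons exceeded ependymal cells in 15 and oligodendrocytes exceeded astrocytes in 13. Polydendrocytes exceeded oligodendrocytes in only 9 of 16 libraries, by 0.0356 percentage points ± 0.1 (SD), which lies within their spread. The mean difference was also below its SD between mural cells and neurons (0.314 ± 0.371) and between endothelial cells and fibroblasts (0.462 ± 0.503). In the other neighboring pairs it exceeded its SD, from 0.356 ± 0.223 (neurons, ependymal cells) to 0.954 ± 0.459 (microglia, endothelial cells). Ranges over libraries overlapped in every neighboring pair. Without S10 and S11 the mean share was 5.44% in microglia, 4.59% in endothelial cells, 4.18% in fibroblasts, 3.58% in mural cells, 3.21% in neurons, 2.91% in ependymal cells, 2.31% in polydendrocytes, 2.27% in oligodendrocytes and 1.68% in astrocytes, the same order. Without S13 to S16 it was 5.59% in microglia, 3.32% in neurons and 1.76% in astrocytes. Median UMIs from these genes per cell ran from 6 in astrocytes, at a median depth of 482 UMIs, to 43 in neurons, at 1489.

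In microglia, the share by library was 5.31%, 5.49% and 7.44% in WT oil (S1, S5, S10). WT tamoxifen gave 5.01%, 5.31%, 4.64%, 5.92% and 7.54% (S3, S8, S9, S13, S16). Esr1cKO oil gave 5.64%, 4.90%, 5.91% and 4.04% (S4, S7, S12, S14), and Esr1cKO tamoxifen 4.66%, 6.48%, 6.32% and 5.25% (S2, S6, S11, S15). The groups overlapped, with S10 and S16 standing highest and S14 lowest. In neurons, WT oil libraries gave 3.03%, 3.11% and 4.26%, WT tamoxifen 3.12%, 3.17%, 3.00%, 3.40% and 3.97%, Esr1cKO oil 3.34%, 2.84%, 3.83% and 2.54%, and Esr1cKO tamoxifen 3.15%, 3.10%, 3.91% and 3.41%, in the same library order. Here too the groups overlapped, and S10 was the highest. Without S10, the WT oil mean went from 6.08% ± 1.18 (SD, n = 3) to 5.40% in microglia and from 3.47% ± 0.688 to 3.07% in neurons, with 2 libraries left.

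A library's position was shared by its cell types. S14 was lowest in all 9 types and S16 highest in 7, and they were also the libraries with the highest and the lowest mitochondrial share of UMIs, 9.21% and 3.32%. S10 was among the 3 highest in 7 types at a mitochondrial share of 6.92%, and S9 among the 3 lowest in 7 at 4.71%. S11, with a mitochondrial share of 8.54%, held 3.62% of UMIs from these genes in all cells, above the mean of 3.23%. The part of RNA quality in these positions was not tested.

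Each cell type was then compared with all other cells of the same libraries, gene by gene, by edgeR's quasi-likelihood test with the library as a block and Benjamini-Hochberg adjustment over all genes tested. In microglia, 79 of 83 tested members were called higher and 1 lower, with a median log2 fold change of 1.21 against -0.20 for all genes, where 30.2% of all genes were called higher and 43.7% lower. In endothelial cells, 81 of 83 were higher and 2 lower (median 0.86), against 36.2% and 40.3% of all genes. Astrocytes had 1 higher and 81 lower of 83 (median -0.97), with 32.3% of all genes higher and 41.2% lower. Polydendrocytes, the oligodendrocyte precursors, had 4 higher and 74 lower of 83 (median -0.62), with 32.5% and 32.4% of all genes. Of 82 genes tested in every type, 74 lay above 0 in both microglia and endothelial cells and below 0 in both astrocytes and polydendrocytes. That count follows largely from those of the single types, and the share of all genes with these signs was not computed.

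The other 5 types had fewer members called, and those of fibroblasts and mural cells were mostly higher in this fit. Fibroblasts had 43 higher and 2 lower of 82 (median 0.29; all genes 13.7% and 34.1%), and mural cells 31 higher and 3 lower of 83 (median 0.18; all genes 15.5% and 39.1%). Neurons had 26 in each direction of 83, with a median of 0.01, and 40.4% and 41.3% of all genes were called. Ependymal cells had 12 higher and 28 lower of 83 (median -0.08), against 30.1% and 34.9% of all genes, and oligodendrocytes 13 higher and 46 lower of 83 (median -0.15), against 32.9% and 42.5%. Over all types, 290 values were called higher and 263 lower of 746, 553 in all, where 74033 of 108100 tests over all genes were called. Without S10 and S11, 294 were higher and 259 lower, where 71831 of 108841 tests over all genes were called. The counts in microglia, endothelial cells, astrocytes and polydendrocytes were then the same. Without the cells of shared barcodes 282 were higher and 266 lower of 741, where 73798 of 108066 tests over all genes were called. With DESeq2's size factors in the same fit 240 were higher and 328 lower of 746, against 77013 of 108100. With those size factors mural cells changed from mostly higher to 4 higher and 27 lower (median -0.15), while the median of all genes there moved from -0.31 to -0.65, so that the distance between both medians was 0.49 and 0.51. Ependymal cells had 6 higher and 55 lower with those size factors, where 3125 and 5318 of all genes were. With library size alone, oligodendrocytes had 0 higher and 77 lower (medians -0.59 for members and -0.53 for all genes). Fibroblasts then had 61 and 2 (all genes 1671 and 3809), and neurons 36 and 21 (all genes 5633 and 5138).

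**Figure D2:**
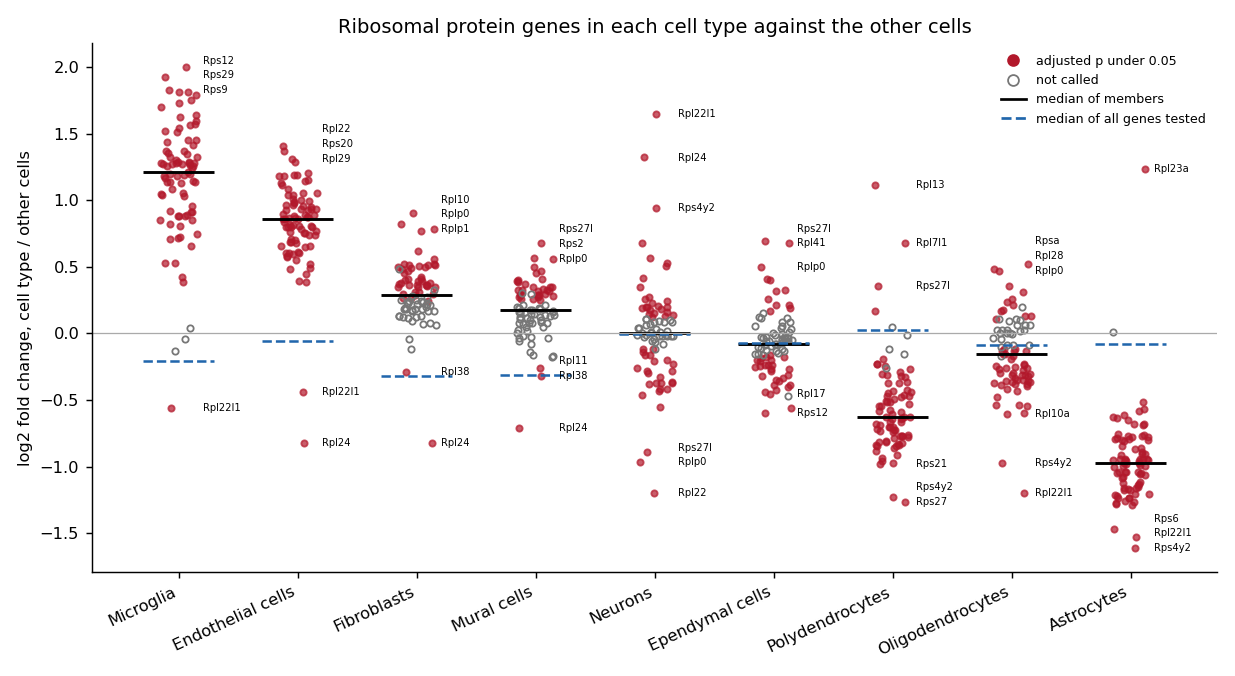
Log2 fold change of each tested gene (points, y axis) between a cell type and the other cells of the same libraries (x axis), filled where the adjusted p is under 0.05, with the median of the members (solid line) and of all genes tested (dashed line). Members lie above all genes in microglia (median 1.21 against -0.20) and below them in astrocytes (-0.97 against -0.08), and in neurons Rpl22l1 (1.65) and Rpl22 (-1.20) lie at opposite ends.

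By role, the 3 stalk genes were all higher in microglia, endothelial cells and fibroblasts and all lower in astrocytes and polydendrocytes. Rplp0, the stalk's base, reached 625 ± 127 CPM in microglia and 160 ± 23.8 CPM in neurons (SD, n = 16 libraries), with log2 fold changes of 1.81 ± 0.0663 (SE) and -0.97 ± 0.0473. Rplp2 was not called in neurons (log2 fold change -0.02), whereas Rplp1 was lower there (-0.28). Rpl5 and Rpl11, which bind 5S rRNA and in nucleolar stress also Mdm2, rose in microglia by 1.52 and 1.17 on the log2 scale and fell in astrocytes by 1.21 and 0.86. In neurons they went opposite ways, Rpl5 lower at -0.42 and Rpl11 higher at 0.20. All 9 genes listed for the peptide exit tunnel were called higher in microglia and in endothelial cells, where 79 and 81 of all 83 tested members were.

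Rps6, the small subunit protein phosphorylated downstream of mTOR, was among the 3 lowest in astrocytes at -1.47 ± 0.090 (SE). Rps27a, made as a fusion with ubiquitin, lay at 1.19 in microglia and -1.04 in astrocytes, and Rps3a1 at 1.28 and -1.28. Rpl41, the smallest ribosomal protein, was one of the 3 highest in ependymal cells (0.68). Rpsa, which is also known as the laminin receptor, led the higher genes of oligodendrocytes at 0.52, followed by Rpl28 (0.49) and Rplp0 (0.47).

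The members that led microglia were Rps12 (2.0 ± 0.066), Rps29 (1.93 ± 0.066) and Rps9 (1.83 ± 0.059), all of the small subunit, with adjusted p of 9.17e-31, 5.36e-30 and 4.59e-31 by edgeR. Rps12 stood at 1180 ± 386 CPM in microglia, with 916, 1080 and 1850 in WT oil, 1030, 742, 792, 1520 and 2020 in WT tamoxifen, 1110, 1060, 1210 and 1150 in Esr1cKO oil and 747, 1080, 1640 and 867 in Esr1cKO tamoxifen. Without S10 and S11 its log2 fold change was 2.06. Its lowest microglial library (742 CPM) was above its highest library in neurons (551 CPM). The highest libraries of endothelial cells (1160 CPM), fibroblasts (1370 CPM) and mural cells (816 CPM) lay above that lowest microglial library. In endothelial cells Rpl22 (1.41), Rps20 (1.37) and Rpl29 (1.31) led. In fibroblasts Rpl10 (0.91), Rplp0 (0.82) and Rplp1 (0.79) led. In mural cells Rps27l (0.68), Rps2 (0.56) and Rplp0 (0.56) led.

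The members furthest below the other cells differed by type. In ependymal cells they included Rps12 (-0.60) and Rpl17 (-0.45), and in polydendrocytes Rps27 (-1.26), Rps4y2 (-1.23) and Rps21 (-0.98). In oligodendrocytes Rpl22l1 and Rps4y2 were followed by Rpl10a (-0.60). Rpl38 was lower in mural cells (-0.32) and fibroblasts (-0.29).

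A few members went against their type. Rpl24 was lower in endothelial cells (-0.82), mural cells (-0.71) and fibroblasts (-0.82) but higher in neurons (1.32). Its locus overlaps Gm28037 on the same strand, and 81.3% of its end words occur in other genes. Rpl23a was the only member called higher in astrocytes (1.24 ± 0.138; without S10 and S11, 1.54), and Tlcd1, the gene that overlaps it on the opposite strand, lay at 4.75 there. Without strand information in the sources used here, reads of both genes cannot be told apart. Rpl13 was higher in polydendrocytes (1.11), while Gm20388, which overlaps it on the same strand, was at -0.05.

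Paralogue pairs were split between cell types. Rpl22l1 was higher in neurons (log2 fold change 1.65 ± 0.047, adjusted p = 4.96e-22 by edgeR) and lower in astrocytes (-1.53), oligodendrocytes (-1.20), microglia (-0.56) and endothelial cells (-0.44). Rpl22 went the other way in neurons (-1.20), endothelial cells (1.41) and microglia (1.57). In astrocytes both genes were lower. Without S10 and S11, Rpl22l1 lay at 1.61 and Rpl22 at -1.24 in neurons. In neurons, Rpl22l1 stood at 514, 566 and 671 CPM in WT oil, 521, 484, 554, 505 and 645 in WT tamoxifen, 571, 469, 628 and 446 in Esr1cKO oil and 544, 513, 626 and 595 in Esr1cKO tamoxifen. Rpl22 in the same libraries stood at 150, 134 and 214, then 123, 103, 107, 159 and 156, then 176, 120, 158 and 149, then 136, 112, 207 and 144 CPM. Every neuronal sum held more Rpl22l1 than Rpl22, and the groups overlapped for both genes.

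As a share of the pair's UMIs, Rpl22l1 made up 79.1% ± 2.80 in neurons (75% to 83.8%, n = 16), 21.9% ± 3.31 in microglia and 27.1% ± 5.55 in endothelial cells. The highest microglial library (28.4%) lay below the lowest neuronal library. Between them were oligodendrocytes (32.4%), astrocytes (41.2%), ependymal cells (44.1%), fibroblasts (47.4%), mural cells (47.8%) and polydendrocytes (48.1%). The share in mural cells rests on 539 and 455 UMIs over all libraries, and S4 had no Rpl22 UMI there. How reads that Rpl22l1 shares with other genes were assigned is unknown, and its part in these shares was not tested.

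**Figure D3:**
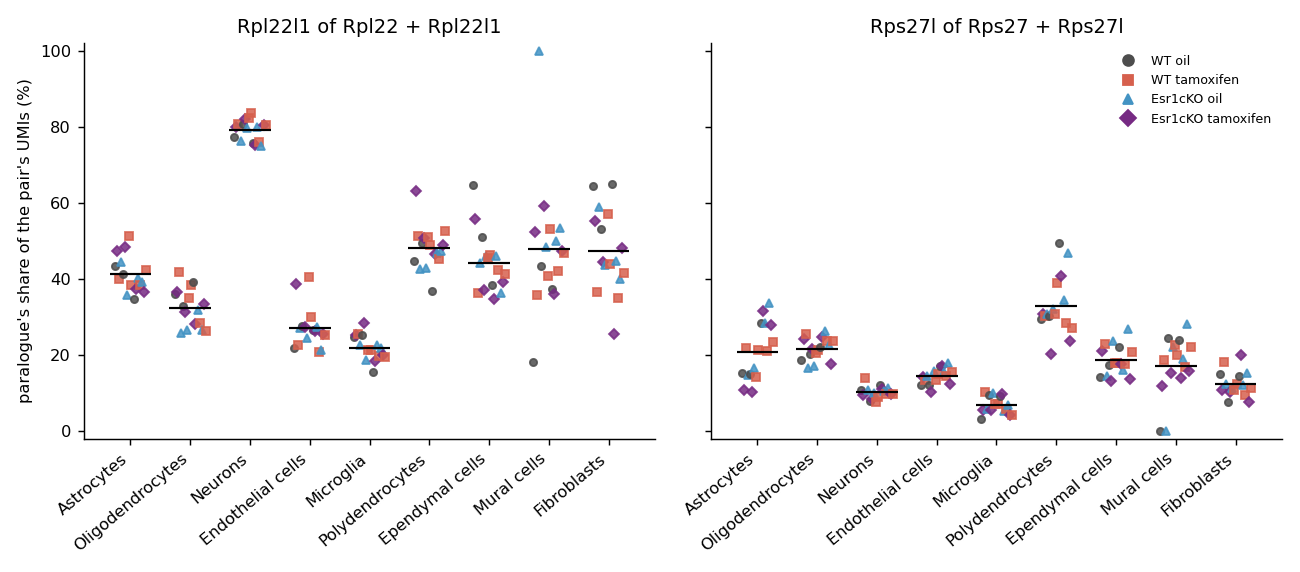
Share of a pair's UMIs (y axis, percent) held by Rpl22l1 (left) and Rps27l (right) in each cell type (x axis), with 1 point per library colored by group and a line at the mean. Neurons sit at 75% to 83.8% for Rpl22l1, above every microglial library, and polydendrocytes have the highest mean for Rps27l, 32.8%.

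For the second pair, polydendrocytes had the highest mean share of Rps27l, 32.8% ± 7.74, and microglia the lowest, 6.86% ± 2.32. Rps27l, which p53 is known to induce, was called higher in endothelial cells (1.19), ependymal cells (0.69), mural cells (0.68), polydendrocytes (0.36) and oligodendrocytes (0.31), and lower in neurons (-0.89) and astrocytes (-0.52). Rps27 was the lowest member of polydendrocytes (-1.26 ± 0.065). Rpl7l1 held 22.0% ± 5.19 of its pair in polydendrocytes and 8.60% ± 3.05 in microglia. The remaining paralogues were near absent: Rpl39l had 40 UMIs, Rpl3l 71 (24 of them in astrocytes) and Rpl10l 16 in all cells together. Rps4y2, beside Rps4x, was higher in neurons (0.94) and lower in astrocytes (-1.61), oligodendrocytes (-0.98) and polydendrocytes (-1.23).

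Other translation genes followed in part. Of 10 elongation factors, 7 were higher and 2 lower in microglia and in endothelial cells, and 1 higher and 8 lower in astrocytes. Eef1a1, which brings tRNA to the ribosome, lay at 1.30 in microglia and -1.46 in astrocytes, and Eef1a2, its form in neurons and muscle, at 3.37 in neurons. Fau and Gnb2l1 lay at 1.82 and 1.67 in microglia and at -1.05 and -0.84 in astrocytes. Mitochondrial ribosomal proteins, which serve the separate ribosomes of mitochondria, went otherwise: of 74, 2 were higher and 58 lower in microglia, and 57 higher and 3 lower in neurons.

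Immediate early genes, which mark recent stimulation, moved with the type differences of the ribosomal protein genes in part. Of 22 tested, 19 were higher in microglia and 20 in endothelial cells, all 22 were lower in astrocytes, and in polydendrocytes 9 were higher and 11 lower. Heat shock genes were lower in astrocytes (11 of 11) and mixed in microglia (3 higher, 6 lower). Neutrophil markers summed to at most 4490 CPM in microglia (S6), perivascular macrophage markers to 620 to 1810 CPM there, and red blood cell markers to 5980 to 36200 CPM in endothelial cells. In ependymal cells, choroid plexus markers reached 117000 CPM in S8 and at most 397 CPM in the other libraries. The part of these genes in the differences was not tested.

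Neurons were divided further into 23 clusters, named here by leading gene, for which shares are a description. Pooled over libraries, the highest shares of ribosomal protein UMIs were in the clusters led by Agrp (5.80%, 63 cells), Pomc (4.95%, 143 cells), Tac2 (4.20%, 107 cells) and Oxt (4.18%, 152 cells), which are neuropeptide genes of hypothalamic neurons. Of the Agrp cells 33.3% came from 1 library, and only 1 library held enough of them for a value of its own. The cluster led by Gnrh1 and Gal held 4.07% over 1408 cells. The lowest were those led by Lrrtm4 (0.6%, 1141 cells) and B230323A14Rik (0.35%, 95 cells), where nuclear RNAs made up 5.65% and 6.48% of UMIs, against 1.42% in the Agrp cluster. Cells of the Pmch and Slc6a3 clusters, at 1.72% and 1.25%, had median depths of 371.5 and 375 UMIs and mitochondrial shares of 8.28% and 8.70%. Their nuclear RNA shares, 0.844% and 0.615%, were the lowest of all clusters. The Vipr2 and Vip clusters, with nuclear RNAs at 4.01% and 4.26%, held 3.81% and 3.41%. The part of nuclear RNA in these shares was not tested.

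Single members varied between libraries in different degree. The coefficient of variation over 16 libraries, in all cells, had a median of 16.3% over 83 genes. Rpl29 stood far out at 104%, where counting alone gives 18.9%, and its level was 11.1, 7.89 and 65.7 CPM in WT oil. WT tamoxifen gave 47.1, 6.41, 3.85, 13 and 16 CPM for Rpl29, Esr1cKO oil 6.63, 49.6, 47.5 and 8.56, and Esr1cKO tamoxifen 3.98, 4.51, 11.2 and 10.4. S3, S7, S10 and S12, from 3 groups, were high. In neurons these libraries held 36.4 to 62.5 CPM of Rpl29 and the others at most 15.7 CPM, and in microglia 73.2 to 120.0 CPM against at most 18.7.

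**Figure D4:**
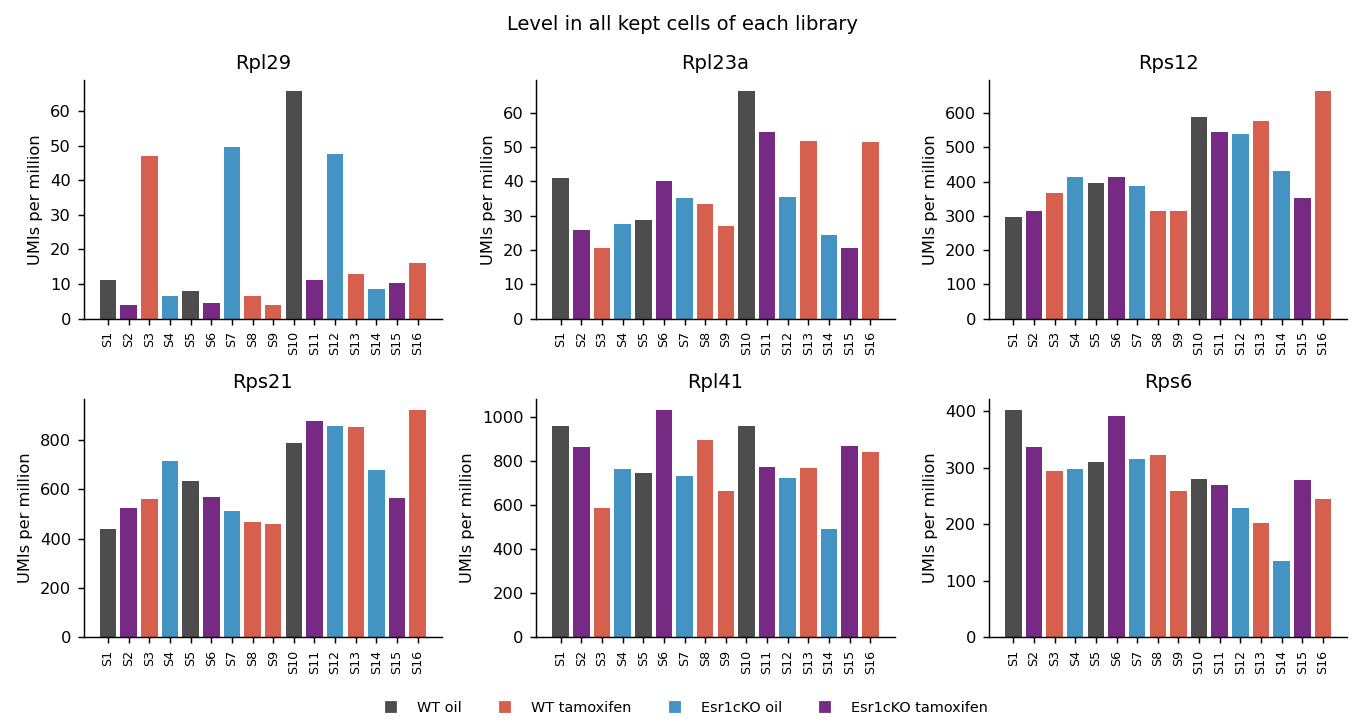
Level in all kept cells of each library (bars, CPM, from 0) for 6 genes, colored by group. Rpl29 is high in S3, S7, S10 and S12 (47.1 to 65.7 CPM) and at most 16 CPM elsewhere, while Rps12 and Rps21 are highest in S16.

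Rpl23a (36.9%), Rps3a3 (26.8%), Rps12 (26.6%) and Rps21 (25.2%) followed Rpl29 in variation. Rps12 ran from 297 CPM in S1 to 664 in S16 and Rps21 from 440 to 921 in the same libraries. Rps6 went another way, with 402, 310 and 280 CPM in WT oil, 295, 323, 259, 202 and 244 in WT tamoxifen, 298, 315, 228 and 135 in Esr1cKO oil and 336, 391, 269 and 279 in Esr1cKO tamoxifen, so that S1 was highest and S14 lowest.

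The stalk genes illustrate how far libraries of a group differed. Rplp1 stood at 700, 934 and 1240 CPM in WT oil, 840, 866, 699, 1130 and 1230 in WT tamoxifen, 895, 841, 1130 and 760 in Esr1cKO oil and 809, 969, 1080 and 763 in Esr1cKO tamoxifen. Rplp2 ran from 401 CPM (S14) to 664 (S16), and Rplp0 from 174 (S14) to 355 (S10). Ranges of the other genes followed in all cells were 214 to 328 CPM for Rpsa, 453 to 766 for Rps27a, 254 to 433 for Rpl5, 300 to 569 for Rpl11, 286 to 538 for Rps4x and 335 to 556 for Rps3a1. Paralogue partners ran from 228 to 467 CPM for Rpl39, 333 to 560 for Rpl3, 175 to 382 for Rpl10 and 238 to 408 for Rpl7. These all-cell sums mix cell types.

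The remaining comparisons asked whether tamoxifen or the loss of Esr1 changed these genes in any cell type. No member was called in any of the 5 comparisons, each of 729 gene-by-type tests over 9 types, by edgeR's quasi-likelihood test. Over all genes, 0% of 64915 tests were called for tamoxifen in WT, in Esr1cKO, for Esr1cKO against WT under oil and for the interaction, and 0.00154% for Esr1cKO against WT under tamoxifen, a single gene, Nov in neurons, named after its value was seen. At an unadjusted p under 0.05 stood 5 members for tamoxifen in WT, 12 for tamoxifen in Esr1cKO, 32 for Esr1cKO against WT under oil, 4 under tamoxifen and 20 for the interaction, which is 0.686%, 1.65%, 4.39%, 0.549% and 2.74% of the 729 tests. Over all genes the same shares were 3.24%, 3.57%, 4.85%, 3.18% and 4.85%, above that of the members in each comparison with all 16 libraries. Without S10 and S11 the counts in that order were 17, 30, 36, 16 and 42 of 728 member tests. Over all genes they were 3474, 2946, 3996, 2397 and 3796 of 66427, so the members' share no longer lay below for the interaction alone. Without S13 to S16 the same held for tamoxifen in WT alone, with 21 of 724 and 1425 of 56668. DESeq2 called no member in any comparison either.

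Median log2 fold changes of the members moved when libraries were left out. For tamoxifen in WT mice, the median was -0.09 in neurons and -0.15 in microglia with all libraries, 0.15 and 0.05 without S10 and S11, and -0.21 and -0.37 without S13 to S16. For Esr1cKO against WT under oil, neurons went from -0.12 to 0.12 and microglia from -0.26 to -0.07 without S10 and S11. The interaction median was 0.28 in microglia and 0.18 in neurons, and 0.02 and -0.16 without S10 and S11, but 0.46 and 0.20 without S13 to S16. For Esr1cKO against WT under tamoxifen it was 0.04 in microglia and 0.06 in neurons, -0.06 and -0.05 without S10 and S11, and 0.27 and 0.16 without S13 to S16. Tamoxifen in Esr1cKO mice gave 0.10 in neurons and 0.16 in microglia, 0.00 and 0.09 without S10 and S11, and -0.001 and 0.12 without S13 to S16.

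**Figure D5:**
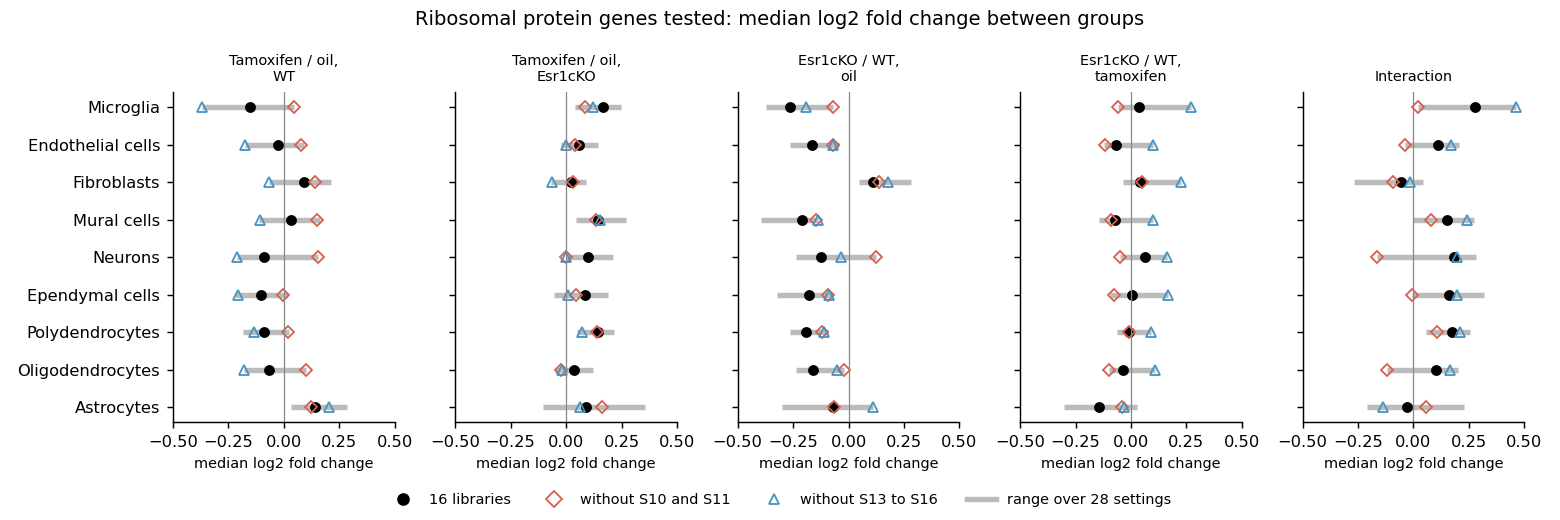
Median log2 fold change of the tested members (x axis) per cell type (y axis) in the 5 comparisons, with all 16 libraries (filled), without S10 and S11 (diamonds), without S13 to S16 (triangles) and the range over 28 settings (grey bars). Medians stay within 0.5 of 0, and in WT neurons the tamoxifen median is -0.09 with all libraries and 0.15 without S10 and S11.

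The smallest unadjusted p values belonged to few genes, and none passed adjustment. For tamoxifen in WT mice, Rpl35, whose end is shared with copies over 96.0% of its words, had the smallest p in polydendrocytes (log2 fold change -0.77 ± 0.308 SE), microglia (-0.69) and endothelial cells (-0.47). In Esr1cKO mice Rpl35 lay at 0.90 ± 0.349 in mural cells, and the interaction was 1.25 ± 0.43 in polydendrocytes and 1.13 ± 0.396 in microglia, with adjusted p of 0.932 and 0.808 by edgeR. Rpl29 lay at -2.42 ± 1.171 in astrocytes, -2.08 ± 0.978 in oligodendrocytes and -1.66 ± 0.798 in endothelial cells for tamoxifen in Esr1cKO mice, where S7 and S12 are the high oil libraries. Rps6 lay at -0.94 ± 0.291 in polydendrocytes for Esr1cKO against WT under oil (adjusted p = 0.957 by edgeR), and in all cells S14 was its lowest library.

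In all cells, the ranges of the groups overlapped in 95 of 96 comparisons, 4 pairwise comparisons for each of 24 genes. The exception was Rpl41, with 765, 732, 723 and 491 CPM in Esr1cKO oil against 864, 1030, 772 and 865 in Esr1cKO tamoxifen. Among 9985 genes with at least 1000 UMIs, ranges did not overlap for 2.27% in that comparison, 2.14% for tamoxifen in WT, 6.05% for Esr1cKO against WT under oil and 0.851% under tamoxifen, so a single gene among those followed is not read as a change. For the share of all members, ranges overlapped in 40 of 40 comparisons over all cells and the 9 types.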

How the data were processed

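The authors deposited, for each of the 16 libraries, whole-number counts of UMIs per gene symbol and cell barcode, without normalization and without pooling of replicates. The submitters' processing notes name mm10 and STAR 2.6; the annotation and the use of strand in counting are not given in the sources used here. The members and gene lists were chosen with earlier results of these data known.

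As in the study, a barcode was kept between 200 and 4000 genes if mitochondrial UMIs stayed under 15%. Clusters came from Seurat 5.3.0, run under R 4.3.3 on 2000 variable genes from which members and their -ps copies were left out (30 anchor dimensions, 20 components, resolution 0.05). Neurons were clustered again at 0.7 with 500 variable genes. Scrublet (scanpy 1.11.5, expected rate 0.05) called 476 doublets, which were removed only in an alternative. UMIs were summed per library and type with at least 10 cells and tested with edgeR 4.0.16 (quasi-likelihood, TMM, filterByExpr, two-sided, Benjamini-Hochberg threshold 0.05 over all genes of a type). Between groups, p-values measure the spread between mice, 1 library each. Between types the library is a block, and p-values measure how the difference within a library varies over libraries. The scripts were tested on simulated data. Depth ran from 1717573 to 5457033 UMIs in kept cells per library, and counting error is smallest in the deepest.

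Genes named are, between types, the 3 called members with the largest change in each direction; between groups, the called members or, where none was called, that with the smallest p per type; and a fixed set of stalk, 5S, small subunit and paralogue genes. Some genes that this rule takes are not reported here. Alternatives were DESeq2 1.42.0, its size factors, no filter on low counts, library size alone, oil libraries alone, each library left out, S10 and S11 left out, successive fours of library numbers as a block, 500 genes or 5% mitochondrial UMIs as cell limits, doublets removed, and clustering with the members. Leaving out S13 to S16 or the cells with shared barcodes was chosen after seeing the data.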

Additional observations from a re-analysis of the deposited data

Results flagged for a closer look

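Of 93 groups of 4 or 5 libraries tested for a library far from the others, 4 were flagged, where chance flags about 5% of groups. Rps4y2 stood at 72.1 CPM in all cells of S12, against 38.9 to 43.4 in the other Esr1cKO oil libraries. Rps3a1 stood at 531 CPM in S6, against 468 to 473 in the other Esr1cKO tamoxifen libraries. Rpl41 stood at 491 CPM in S14, against 723 to 765 in the other Esr1cKO oil libraries. Rps27 stood at 536 CPM in S3, against 703 to 749 in the other WT tamoxifen libraries.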

How the results depend on the processing

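The labels share no replicate number between groups and give no day, so no known pairing could be fitted. With successive fours of library numbers as a block, of which S1 to S4, S5 to S8 and S9 to S12 each hold every group, 0 members were called in the 5 group comparisons. The 48 pairs of gene and type named between types had 1343 alternative values. Of these values, 1300 gave the same direction and side of the threshold, 41 no longer passed and 2 reversed. Those 2 were Rps2 (-0.047) and Rplp0 (-0.046) in mural cells, both with cells under 5% mitochondrial UMIs. All alternatives passed for 36 of the 48 pairs. Leaving out 1 library at a time gave 281 to 325 gene-by-type values called higher between types and 254 to 265 lower, of 746 or 747. Over all genes, 71646 to 73836 of 107420 to 108949 tests between types were then called. In each group comparison 0 members were called. Without a filter on low counts 228 were higher and 308 lower of 774, where 98653 of 245448 tests over all genes were called. With cells under 5% mitochondrial UMIs it was 217 and 316 of 737, against 52006 of 83583. DESeq2 gave 236 and 332 of 746 (all genes 74855 of 108100), and library size alone 299 and 302 of 746 (76684 of 108100). Oil libraries gave 234 and 221 of 747 (57488 of 105875), and leaving out S13 to S16 gave 237 and 251 of 744 (66180 of 106551). For tamoxifen in Esr1cKO mice, 2 of 770 member values were called without the filter on low counts, where 82 of 195991 tests over all genes were. Both were Rpl29 (-1.65 in endothelial cells, -2.11 in oligodendrocytes), and 0 members were called with the filter. Its high Esr1cKO libraries were S7 and S12, both of oil, with 79.6 and 93.9 CPM in endothelial cells. The other Esr1cKO libraries held at most 24.4 CPM there. The cause of these calls was not tested. In cells with over 500 genes the astrocyte share was 2.14% ± 0.921, with libraries from 0.812% to 3.92%. Oligodendrocytes stood there at 2.30% ± 0.298 and polydendrocytes at 2.38% ± 0.323, so astrocytes were lowest by less than the spread of their libraries. In cells under 5% mitochondrial UMIs it was 1.33% ± 0.247 in astrocytes and 2.21% ± 0.324 in oligodendrocytes.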
